A study of Mus musculus with 6 samples.

Results

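The genes described here encode the machinery that carries newly made proteins into the endoplasmic reticulum (ER) and attaches N-glycans to them. They are 35 subunits of 8 complexes, listed by name with earlier results of these data known, and all 35 were found among the 49315 genes of the deposited table. RNA was sequenced from RAW264.7 cells, a mouse macrophage-like line that the labels give as wild type, which for 24 h had received either SKI-II, a compound known as a sphingosine kinase inhibitor, at 4 μg/mL, or its vehicle DMSO. Each condition had 3 libraries, numbered as replicates 1 to 3, and the cells differed in no labelled feature other than the compound. The comparison asks how the RNA of these cells differs after SKI-II. All libraries come from 1 cell line, and no label says that the libraries of a condition came from separate cultures, so p-values measure the spread between these libraries, which may be technical.

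A protein bound for secretion or for a membrane begins with a hydrophobic signal that the signal recognition particle (SRP) binds as it leaves the ribosome. The SRP receptor brings the ribosome to the Sec61 channel, where TRAM, SERP1, the translocon-associated protein (TRAP) complex and Sec62-Sec63 assist passage, signal peptidase removes the signal, and oligosaccharyltransferase (OST) transfers a preassembled glycan from dolichol to asparagine. Macrophages are secretory cells that rely on this route for cytokines, lysosomal enzymes and surface receptors. In many cells, genes of this route are targets of the unfolded protein response, whose factors XBP1 and ATF6 bind promoter elements that hold the letters CCACG.

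To let the sequence be read beside the values, the bases around each CCACG are shown for the members with the largest rises that had a RefSeq promoter (GRCm38.p6). Members that were not called hold these letters as well, and whether they bear on the changes was not tested. Each line reads 5′ to 3′ with CCACG in capitals, on whichever strand holds it, so that the contexts of the letters can be compared. The number after the gene is the position of the motif's first base as read along the gene. It is counted from the RefSeq transcript start, with -1 the base before that start.
Serp1 at -154, minus strand, chr3:58526024-58526048: aaagagaaacCCACGcgctggggtg
Serp1 at -44, minus strand, chr3:58525914-58525938: cggggccaatCCACGtctggttccc
Srprb at -56, minus strand, chr9:103202107-103202131: ccgcgccccaCCACGgcgtggagcc
Srprb at -50, plus strand, chr9:103202101-103202125: gctctaggctCCACGccgtggtggg
Srprb at -36, minus strand, chr9:103202087-103202111: gagcctagagCCACGtaactttggc
Spcs2 at -246, minus strand, chr7:99859115-99859133: cgctCCACGgtggcgcttg
Tram2 at -229, plus strand, chr1:21079440-21079464: gcgccaccggCCACGcctcctgggc
All 4 of these genes lie on the minus strand, so a line marked plus holds the motif on the strand opposite to the gene. Srprb holds its motifs, and Serp1 the nearer of its motifs, close to the RefSeq start. Those of Spcs2 and Tram2 lie near the far end of the window. In GENCODE M21, Srprb and Spcs2 begin further upstream, at chr9:103202137 and chr7:99863462. The lines of these 2 genes therefore lie within the genes as M21 annotates them.

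The libraries held 12495957 to 20050677 counts. Of the macrophage markers, all 10 passed the filter on low counts, with a summed level of 9013 to 12157 CPM (counts scaled to the library total) in DMSO and 5731 to 8083 in SKI-II, of which Cd14 and Fcgr1 were higher, Lyz2, Adgre1 and Itgam lower, and Cd68, Csf1r, Spi1, Ptprc and Mertk not called. The epithelial markers (6 of 6), 3 of 6 B cell markers and 2 of 6 T cell markers were at 0 in every library, the B cell and fibroblast lists summed to at most 1.45 CPM, and the T cell list, mostly Lck, summed to 6.16 to 7.15 CPM in DMSO and 11.4 to 14.7 in SKI-II. Mitochondrially encoded genes took 1.07% to 1.25% of the counts in DMSO and 1.38% to 1.71% in SKI-II. Within a condition, the 34 tested members tended to deviate together. Of the DMSO libraries, replicate 3 was the highest for 28 members and replicate 2 for none, and of the SKI-II libraries replicate 2 was the highest for 21. The part of these shifts in the results below was not tested.

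Most of the machinery was more abundant after SKI-II and none of it was called lower. Levels are given as normalized counts, which are counts scaled to a common library size, and a gene was called where its Benjamini-Hochberg adjusted p in edgeR's quasi-likelihood test over 12274 genes was below 0.05. Of the 34 members tested, 22 rose, 0 fell and 12 were not called, where 18.4% of all tested genes were called higher and 19.7% lower. At an unadjusted p below 0.05 the members numbered 25 higher and 0 lower, and DESeq2 and limma-voom also called 0 lower. A log2 fold change above 1 was reached by 7 called members (Serp1, Sec61a1, Spcs2, Ostc, Tram2, Tram1 and Srprb), against 8.28% of all tested genes, and a change below -1 by none, against 7.44%. In 23 members the lowest SKI-II library exceeded the highest DMSO library, against 24.8% of all tested genes. In bulk RNA, fewer cells of a type and less RNA per cell cannot be told apart.

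The median log2 fold change of the members was 0.57, beside 0.004 over all tested genes, and 31 of the 34 lay above 0. For comparison at like abundance, the 7449 tested genes within their range of mean level had a median of -0.04, with 18.6% called higher and 23.9% lower. The members together took 0.513% to 0.550% of the counts in DMSO and 0.728% to 0.807% after SKI-II. Their summed level was 1.44 times that in DMSO. The smallest log2 fold change among called members was 0.47, for Srp68, and the largest among those not called was 0.48, for Sec61b, so the noise of a gene as well as its change decided the call.

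**Figure D1:**
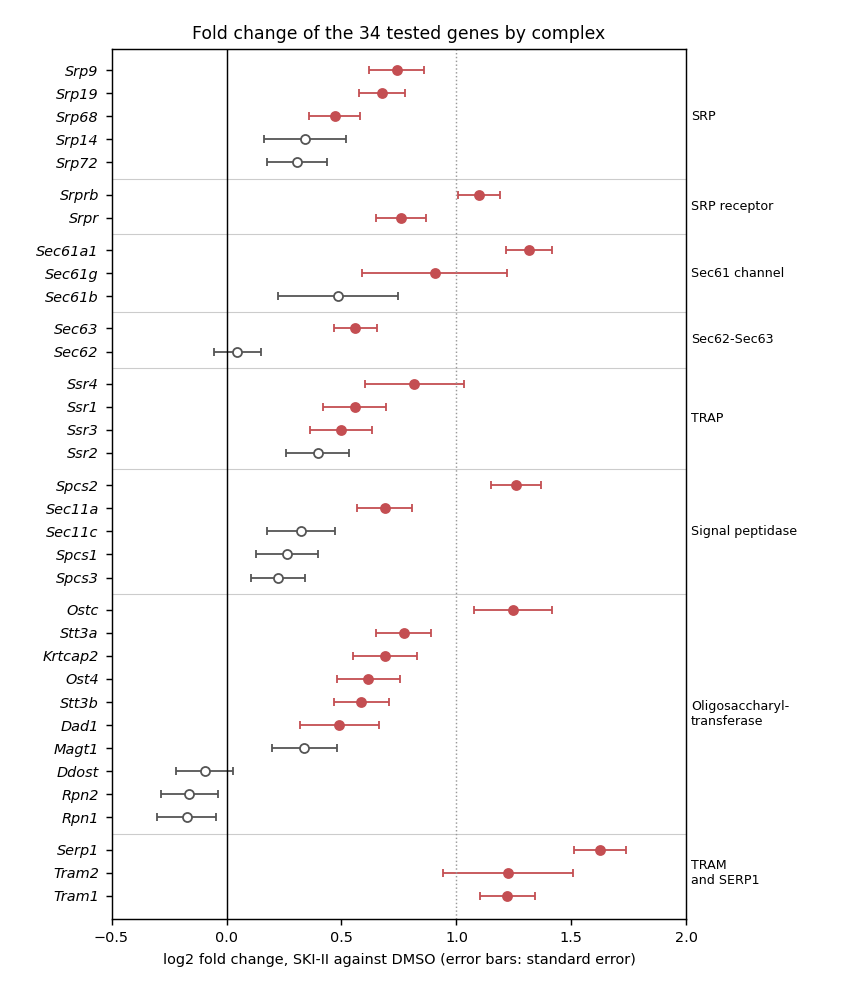
The log2 fold change of SKI-II against DMSO (horizontal axis) of the 34 tested members by complex, with standard errors, filled red where called higher and open where not called; the dotted line marks 1. TRAM and SERP1 lie at 1.22 to 1.62, while Rpn1, Rpn2 and Ddost of OST lie just below 0.

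The change was uneven between complexes. By summed level, TRAM and SERP1 were 2.66 times and the Sec61 channel 2.28 times as abundant in SKI-II as in DMSO. The SRP receptor stood at 1.79 times, signal peptidase at 1.53, TRAP at 1.44, Sec62-Sec63 at 1.36 and SRP at 1.35. The sum of OST, which held the members with the most counts in DMSO, was 1.19 times that in DMSO. These sums weight a complex by its most abundant genes, and differences between complexes were not tested.

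SRP meets the signal in the cytosol, and 3 of its 5 tested subunits rose (5 without DMSO replicate 3, and 2 without either DMSO replicate 2 or SKI-II replicate 3), with a median log2 fold change of 0.47. Srp9, which with Srp14 forms the domain that slows translation, had 872, 819 and 1034 normalized counts in DMSO replicates 1, 2 and 3 against 1363, 1621 and 1568 in the same order under SKI-II. All SKI-II libraries were above all DMSO libraries. The log2 fold change was 0.74 (SE 0.12, edgeR adjusted p = 0.00218). Srp14, its partner, was not called, at 0.34 (SE 0.18), and the difference between the partners was not tested. Srp19, which helps assemble the particle on its RNA, rose by 0.67, and Srp68, which pairs with Srp72 on that RNA, by 0.47, the call that was lost without either of the latter libraries. Srp72 had 3213, 3413 and 4270 normalized counts in DMSO against 4204, 4398 and 4880 under SKI-II. Its groups overlapped, because DMSO replicate 3 was above the lowest SKI-II library, and its log2 fold change of 0.31 (SE 0.13) was not called (edgeR adjusted p = 0.111).

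Srp54 is the GTPase of SRP that holds the signal itself, and the mouse has near-identical copies of its gene. Srp54a, the copy among the members, held 2, 0 and 4 counts in DMSO against 3, 1 and 5 under SKI-II, too few to test. In the GENCODE M21 transcripts, the 1515 coding bases of Srp54a were identical to those of Srp54b, and differed from Srp54c at 6 bases. Srp54b was not found among the genes of the deposited table. Reads from the copies can therefore often not be told apart, so a low count does not show a low level. Srp54c, which is not a member, had 626, 623 and 711 normalized counts in DMSO against 1088, 1033 and 1236 under SKI-II. Its log2 fold change was 0.78 (SE 0.11, edgeR adjusted p = 0.00129). Its counts may hold reads of the other copies or miss reads shared with them.

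Both subunits of the SRP receptor rose. Srprb, the subunit that anchors the receptor in the ER membrane, had 759, 754 and 832 normalized counts in DMSO against 1681, 1717 and 1624 under SKI-II. The libraries of each condition lay close together and the conditions were far apart. The log2 fold change was 1.10 (SE 0.09, edgeR adjusted p = 8.68e-05). Srpr, the GTPase subunit that meets SRP, rose by 0.76 (SE 0.11).

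The Sec61 channel is the pore itself, and its core subunit was among the members that rose most. Sec61a1, which forms the pore, had 3851, 3964 and 4224 normalized counts in DMSO against 9804, 10751 and 9379 under SKI-II. All SKI-II libraries lay far above all DMSO libraries. The log2 fold change was 1.31 (SE 0.10, edgeR adjusted p = 5.29e-05). Sec61g, a small subunit that clamps the pore, rose by 0.91 (SE 0.31), a call that was lost without DMSO replicate 2 (adjusted p = 0.0640) and without SKI-II replicate 2 (adjusted p = 0.0625). Sec61b, the other small subunit, had 639, 762 and 773 normalized counts in DMSO against 961, 1357 and 723 under SKI-II. SKI-II replicate 3 fell among the DMSO libraries, and the log2 fold change of 0.48 (SE 0.26) was not called (edgeR adjusted p = 0.0956). Without that library Sec61b was called, at 0.68 (adjusted p = 0.0149).

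Sec62 and Sec63 assist signals that open the channel poorly. Sec63, whose luminal domain recruits the chaperone BiP, had 1884, 1803 and 1849 normalized counts in DMSO against 2801, 2901 and 2462 under SKI-II. These groups did not overlap, and Sec63 rose by 0.56 (SE 0.09, edgeR adjusted p = 0.00381). Sec62, which binds Sec63, stood at 0.05 (SE 0.10) and was not called.

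TRAP sits beside the channel and assists weak signals. Of its 4 subunits 3 rose (1 without either DMSO replicate 2 or SKI-II replicate 2), and in all 4 the lowest SKI-II library exceeded the highest DMSO library. Ssr4 had 1132, 1356 and 1723 normalized counts in DMSO against 1976, 2854 and 2586 under SKI-II, a wide spread in both conditions. Its log2 fold change was 0.82 (SE 0.21, edgeR adjusted p = 0.00630). Ssr1 stood at 0.56 and Ssr3 at 0.50. Both calls depended on single libraries. The Ssr1 call was lost without DMSO replicate 2 (adjusted p = 0.0779) or SKI-II replicate 2 (0.0641), and the Ssr3 call without any 1 of 3 libraries, namely DMSO replicate 1 (0.0633) and both replicates 2 (DMSO 0.103, SKI-II 0.0780). Ssr2 had 3280, 3713 and 4489 normalized counts in DMSO against 4567, 5286 and 5270 under SKI-II. The groups only just separated, and the log2 fold change of 0.40 (SE 0.14) narrowly missed the call (edgeR adjusted p = 0.0526). It was called in 9 of 13 alternative fits.

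**Figure D2:**
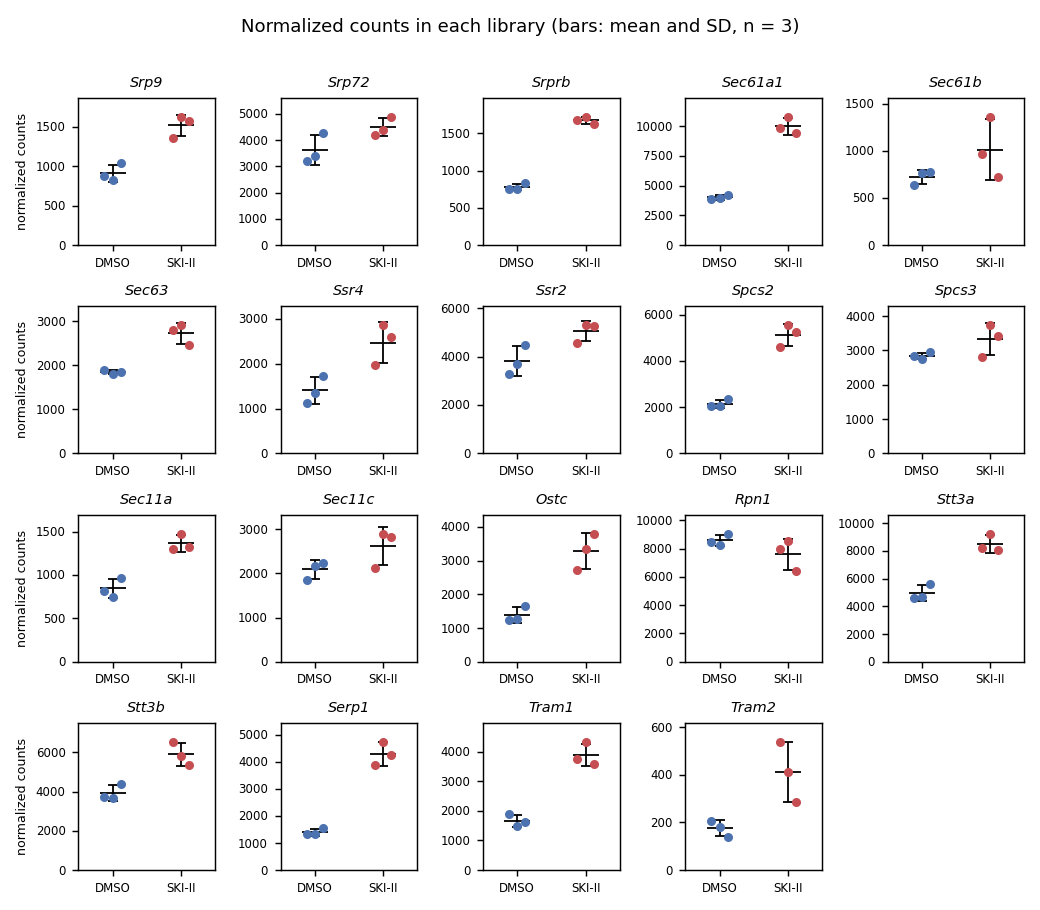
Normalized counts (vertical axes, from 0) in each of the 3 DMSO (blue) and 3 SKI-II (red) libraries for 19 members, with the mean and SD as bars. Serp1, Sec61a1, Spcs2, Ostc, Tram1, Tram2 and Srprb separate widely, while the libraries of Rpn1, Sec61b, Spcs3 and Sec11c overlap.

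Signal peptidase cuts the signal off, and 2 of its 5 subunits rose. Spcs2, a non-catalytic subunit, had 2035, 2070 and 2331 normalized counts in DMSO against 4594, 5532 and 5270 under SKI-II. All SKI-II libraries were far above the DMSO libraries, with a log2 fold change of 1.26 (SE 0.11, edgeR adjusted p = 7.12e-05). The other accessory subunits were not called. Spcs3, whose yeast counterpart is essential for activity, had 2843, 2765 and 2941 normalized counts in DMSO against 2823, 3729 and 3427 under SKI-II. SKI-II replicate 1 lay within the DMSO range, and the log2 fold change was 0.22 (SE 0.12, edgeR adjusted p = 0.203). Spcs1 stood at 0.26 (SE 0.14).

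The enzyme has alternative catalytic subunits, Sec11a and Sec11c. Sec11a had 821, 749 and 968 normalized counts in DMSO against 1300, 1475 and 1317 under SKI-II. It rose by 0.69 (SE 0.12, edgeR adjusted p = 0.00312), with no overlap between the groups. Sec11c had 1857, 2168 and 2246 normalized counts in DMSO against 2115, 2900 and 2838 under SKI-II. Its groups overlapped and its log2 fold change of 0.32 (SE 0.15) was not called (edgeR adjusted p = 0.111). The log2 ratio of Sec11c to Sec11a counts within a library, which needs no scaling, was 1.18, 1.53 and 1.21 in DMSO and 0.70, 0.98 and 1.11 in SKI-II. The ratio was lower in all SKI-II libraries than in any DMSO library. The mean went from 1.31 ± 0.20 to 0.93 ± 0.21 (SD, n = 3), and the exact two-sided permutation test gave p = 0.1, the smallest that 3 libraries against 3 allow.

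OST joins the glycan to the protein, and it was the complex with the most mixed response. Of its 10 tested members, 6 rose (3 without DMSO replicate 2) and 4 were not called, and the 3 members below 0 all belonged to it. The enzyme exists in an STT3A form, which works at the channel and carries Ostc and Krtcap2, and an STT3B form, which acts later and carries Magt1 or Tusc3. Rpn1, Rpn2, Ddost, Dad1, Ost4 and Tmem258 are shared by both forms.

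Both catalytic subunits rose. Stt3a had 4619, 4665 and 5632 normalized counts in DMSO against 8170, 9232 and 8036 under SKI-II. Its log2 fold change was 0.77 (SE 0.12, edgeR adjusted p = 0.00175). Stt3b had 3724, 3663 and 4415 normalized counts in DMSO against 6528, 5840 and 5345 under SKI-II. Neither gene had overlapping groups, and Stt3b rose by 0.59 (SE 0.12, edgeR adjusted p = 0.00710), although its call was lost without DMSO replicate 2 (adjusted p = 0.0517). The log2 ratio of Stt3b to Stt3a was -0.34 ± 0.02 in DMSO and -0.52 ± 0.18 in SKI-II (SD, n = 3). SKI-II replicate 1, at -0.32, lay among the DMSO libraries, so the groups overlapped, and the difference was -0.19 (exact two-sided permutation test, p = 0.3, where 0.1 is the smallest possible).

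The accessory subunits of the STT3A form rose. Ostc had 1253, 1260 and 1646 normalized counts in DMSO against 2727, 3341 and 3797 under SKI-II. It was the OST member with the largest change, at 1.25 (SE 0.17, edgeR adjusted p = 0.000320), and its groups were well apart. Krtcap2 rose by 0.69 (SE 0.14). Of the STT3B form, Magt1, a subunit with thioredoxin-like oxidoreductase activity, was not called at 0.34 (SE 0.14, edgeR adjusted p = 0.0935). Tusc3, its paralog and not a member, was not called either, at -0.17 (SE 0.13). A ratio chosen after the values were seen, and so given without a test, sets the summed counts of Ostc and Krtcap2 against those of Magt1 and Tusc3. Its log2 was 0.40, 0.57 and 0.78 in DMSO against 1.08, 1.22 and 1.74 under SKI-II. In that measure, all SKI-II libraries lay above all DMSO libraries.

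Of the shared subunits, some were called higher and others not. Rpn1, a large ribophorin that contacts the translating ribosome, had 8452, 8274 and 9050 normalized counts in DMSO against 7950, 8511 and 6396 under SKI-II. SKI-II replicate 2 lay above the lowest DMSO library, and the log2 fold change was -0.17 (SE 0.13, edgeR adjusted p = 0.368). Rpn2, the second ribophorin, stood at -0.16 (SE 0.12) and Ddost, another core subunit, at -0.10 (SE 0.12), neither called. These 3 genes held 60.2% of the summed OST level in DMSO and 45.6% in SKI-II, and so weigh heavily in the sum of the complex. Dad1 rose by 0.49 (SE 0.17, edgeR adjusted p = 0.0394), the weakest call among the members, lost in 5 of 13 alternative fits, limma-voom among them (adjusted p = 0.0535), with adjusted p up to 0.157 without DMSO replicate 2. Ost4, a very small subunit that stabilizes the catalytic one, rose by 0.62 (SE 0.14), a call lost without DMSO replicate 2 (adjusted p = 0.0567). Tmem258, not a member, was not called at 0.18 (SE 0.13).

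**Figure D3:**
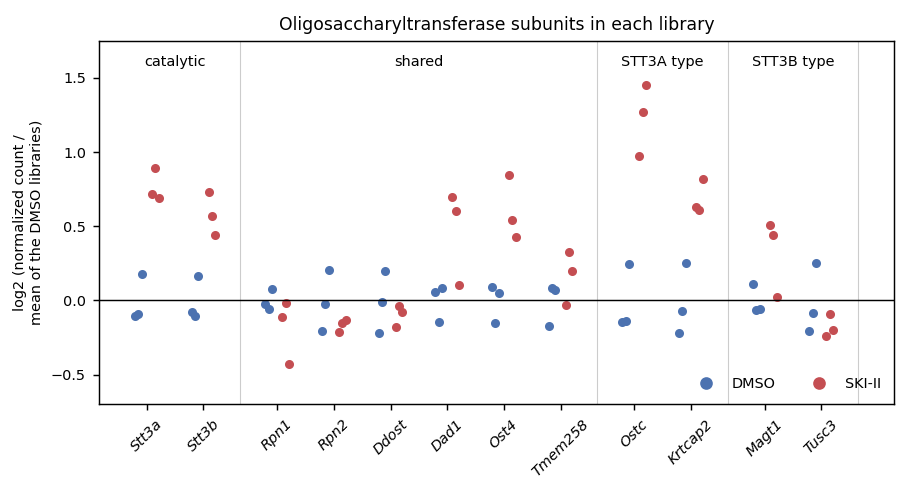
OST subunits in each library as log2 of the normalized count over the gene's own mean in the DMSO libraries (vertical axis), blue for DMSO and red for SKI-II, grouped by the form of the enzyme that carries them. Ostc, Krtcap2, Stt3a and Stt3b lie above their DMSO libraries, whereas Rpn1, Rpn2, Ddost and Tusc3 do not.

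TRAM and SERP1 sit at the mouth of the channel, and all 3 rose by more than 1 on the log2 scale. Serp1, a small protein also known as RAMP4 that binds the translocon, had 1322, 1317 and 1538 normalized counts in DMSO against 3872, 4734 and 4268 under SKI-II. It had the largest change of the members, at 1.62 (SE 0.11, edgeR adjusted p = 1.94e-05), and the lowest SKI-II library had more than 2 times the level of the highest DMSO library. Tram1, which contacts the signal beside the channel, had 1882, 1481 and 1633 normalized counts in DMSO against 3750, 4320 and 3588 under SKI-II. Its log2 fold change was 1.22 (SE 0.12, edgeR adjusted p = 0.000116). Tram2, its paralog, was much less abundant, with 207, 181 and 141 normalized counts in DMSO against 537, 413 and 286 under SKI-II. Its groups did not overlap, but its libraries scattered widely, and the log2 fold change was 1.22 (SE 0.28, edgeR adjusted p = 0.00363). The log2 ratio of Tram2 to Tram1 was -3.25 ± 0.26 in DMSO and -3.28 ± 0.43 in SKI-II (SD, n = 3), a difference smaller than the SD of either condition (exact two-sided permutation test, p = 1, where 0.1 is the smallest possible).

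The 7 members above 1 lie at separate places of the genome (GENCODE M21, GRCm38), all on minus strands. Serp1 is at chr3:58519817-58525892, Ostc at chr3:130695912-130709444, Sec61a1 at chr6:88503579-88518905 and Spcs2 at chr7:99837569-99863462. Srprb is at chr9:103188032-103202137, Tram1 at chr1:13564698-13589910 and Tram2 at chr1:20996299-21079229. Several members share exon bases with a gene on the opposite strand, and the strand setting of the counting is not known. Ost4 shares 53.2% of its exon length with Agbl5, Spcs1 16.3% with Glt8d1 and Krtcap2 15.7% with Trim46, so the values of these members are uncertain. Of the genes with large changes, Srprb shares 20.7% of its exon length with Gm20425 on the same strand and Sec61a1 shares 8.16% with Gm44170 on the opposite strand, both at 0 counts in all libraries, and Serp1 shares 1.56% with Eif2a on the opposite strand.

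Expressed per length, the order of the members changed with treatment. Levels here are in RPKM, counts per kilobase of merged exon length scaled to the library total. In DMSO the highest were Ddost at 174 (157 to 189 over the libraries), Ssr2 at 127 (115 to 141), Rpn2 at 126 (115 to 137) and Rpn1 at 119 (116 to 122). The last 3 of these did not differ beyond their spread. Sec61a1 was at 37.1 in DMSO and 92.3 in SKI-II, moving from place 14 to place 7 of 35, and Serp1 was at 18.8 and 57.9, moving from place 25 to 17. Tram2 stayed in place 34, above Srp54a alone, at 1.66 and 3.86. These levels depend on the length chosen. With the length of the longest principal transcript, an alternative added after the data were seen, the highest in DMSO were Rpn2 at 203, Ssr2 at 199.6, Ddost at 174 and Sec11c at 151, where Sec11c had been at 19.1, and Sec61a1 went from place 13 to place 3.

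The changes were set beside the size of the transcript and of the protein. Over the 34 members, Spearman's rho of the log2 fold change was 0.07 with the length of the principal transcript and -0.19 with the number of codons, beside 0.02 and 0.006 over all tested genes, a description over genes that share the same libraries. By number of codons, the medians of the log2 fold change were 0.67 for the 11 members with the fewest, 0.56 for the middle 11 and 0.52 for the 12 with the most. From shortest to longest they were 0.62, 0.76 and 0.52 by principal transcript length. By merged exon length they were 0.48, 0.59 and 0.62, so the order depended on the measure.

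Promoters of 250 bases before to 50 bases after the start were found for 27 of the 35 members in the RefSeq table, in 29 entries, and searched on both strands. The full ER stress element ERSE, which is CCAAT and CCACG spaced 9 bases apart, was in none of them and in 0.119% of all 32851 promoters. The related element ERSE-II, ATTGG and CCACG spaced by 1 base, was in Krtcap2 and in 0.0365% of all. The XBP1 element UPRE (TGACGTGG) was in no member and in 0.676% of all, and the ATF4 element CARE (TGATGNAA) was in no member and in 3.97% of all. The antioxidant element ARE (TGACNNNGC), bound by Nrf2, was in 9 members, of which 4 were called higher, in 12.4% of all promoters and in 17.0% of the 9195 tested genes with a promoter.

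The letters CCACG alone are also part of ERSE and ERSE-II. They were in 18 of the 27 members, or 19 of their 29 promoters, and in 32.8% of all promoters. They were in 15 of the 17 members with a promoter that rose and in 3 of the 9 that were tested and not called. Among all tested genes with a promoter the share was 52.7%, with 51.1% of those called higher and 53.8% of those called lower. Before the start alone, the letters were in 13 of the 17 and 2 of the 9, beside 47.2% of all tested genes with a promoter. Over all genes, then, the letters were no more frequent in those called higher. A match is a run of letters and not a shown binding site.

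The steps around the machinery were read from 6 further lists of genes. The glycan that OST transfers is built on dolichol, and of the 32 genes tested for that synthesis 15 rose (46.9%, against 18.4% of all tested genes) and 4 fell (12.5%, against 19.7%), with a median log2 fold change of 0.37. The higher count was 11 without DMSO replicate 2, and 13 to 15 when any other library was left out. When DMSO replicate 2 was left out, or else replicate 1 or 2 of SKI-II, 2 of the 4 lower genes kept that call, Alg1 and Alg6. Gnpnat1, which acetylates glucosamine phosphate on the way to UDP-N-acetylglucosamine, had 424, 492 and 489 normalized counts in DMSO against 1553, 1650 and 1988 under SKI-II, a log2 fold change of 1.89 (SE 0.12, edgeR adjusted p = 1.56e-05). Alg12, a mannosyltransferase of the ER lumen, had 412, 383 and 353 in DMSO against 1605, 1152 and 1296 under SKI-II, at 1.82 (SE 0.14). Alg2, a mannosyltransferase of the cytosolic face, had 480, 423 and 345 in DMSO against 1445, 1438 and 1124 under SKI-II, at 1.68 (SE 0.16). Alg1, which adds the first mannose just before Alg2 acts, went the other way. It had 616, 675 and 674 normalized counts in DMSO against 267, 311 and 258 under SKI-II, a log2 fold change of -1.23 (SE 0.11, edgeR adjusted p = 0.000150).

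By stage, the supply of sugar nucleotides held the most genes called higher, 6 of 9 (Pmm2, Gmppa, Gmppb, Gfpt1, Gnpnat1 and Pgm3), against 18.4% of all tested genes. Its log2 fold changes ran from -0.18 to 1.89. By edgeR 0 were lower, against 19.7% of all tested genes, also at an unadjusted p below 0.05 and by DESeq2 and limma-voom. On the cytosolic face 3 of 6 rose (Dpagt1, Alg2 and Alg11) and Alg1 fell. Of the 8 luminal transferases and donor genes, Alg9, Alg12 and Alg5 rose, and Alg6 and Alg10b, which add the first and the last glucose, fell. Of the genes that make dolichol, Srd5a3 rose and Dolpp1 fell, and of the subunits of dolichol phosphate mannose synthase Dpm2 rose. The genes named in this account of stages were not chosen by the rule for named genes.

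**Figure D4:**
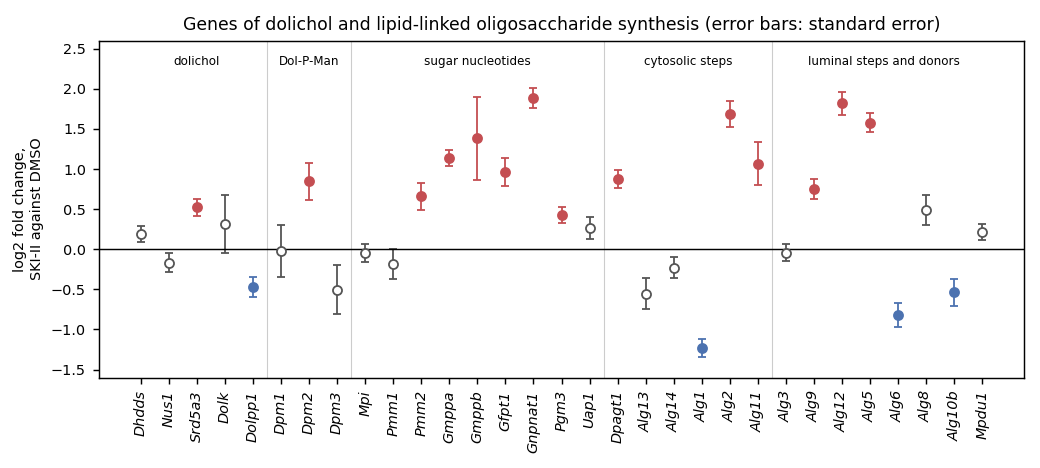
The log2 fold change of SKI-II against DMSO (vertical axis) with standard errors for 31 genes of dolichol and lipid-linked oligosaccharide synthesis, ordered by stage, red where called higher, blue where called lower and open where not called. Gnpnat1 at 1.89 and Alg1 at -1.23 are the extremes.

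After transfer the glycan is trimmed and read by lectins, and 4 of 9 tested genes of that cycle rose (44.4%, against 18.4% of all tested genes). By edgeR 0 fell, against 19.7% of all tested genes, in a list of few genes. The number was also 0 at an unadjusted p below 0.05 and by DESeq2 and limma-voom. Mcfd2 and Lman1, which together carry glycoproteins out of the ER, stood at 1.35 (SE 0.18) and 0.89 (SE 0.11). Calr, the luminal lectin calreticulin, had 23964, 20475 and 23193 normalized counts in DMSO against 51095, 45933 and 36595 under SKI-II, at 0.98 (SE 0.16, edgeR adjusted p = 0.00177). Canx, its membrane-bound relative, was not called at 0.03 (SE 0.11).

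Over 3 lists of routes into the membrane that bypass or follow the Sec61 channel, 4 of 23 tested genes rose and 6 fell (17.4% and 26.1%), shares near the 18.4% and 19.7% of all tested genes. Of the 9 subunits of the ER membrane complex, which inserts some membrane proteins, 2 rose (Emc4 by 0.46 and Emc3 by 0.37) and Emc2 fell by 0.43. These calls were weak. The higher count was 1 without SKI-II replicate 1 and 0 without DMSO replicate 1 or 2 or SKI-II replicate 2 or 3, and the lower count was 0 without DMSO replicate 2 or 3 or SKI-II replicate 1 or 2. Of 6 genes of the translocon for multipass proteins, Ccdc47 rose by 1.19 (SE 0.10, edgeR adjusted p = 6.48e-05) and Nomo1 fell by 0.36. The Ccdc47 call held in all 13 alternative fits, and the Nomo1 call was lost with no filter on low counts and in all leave-one-out fits except that without DMSO replicate 1. Of 8 genes for tail-anchored proteins and the SND route, Caml rose by 0.53, and Tmem208, Wrb, Get4 and Bag6 fell by 0.97, 0.73, 0.57 and 0.42. The Caml call was lost without either DMSO replicate 2 or SKI-II replicate 2, and without DMSO replicate 2 the lower calls were 2, Tmem208 and Get4. The medians of these lists were -0.16, -0.04 and -0.31, and the differences from the members were not tested. Of the other subunits and paralogs of the complexes, 4 were tested and Srp54c alone was called, with Serp2 and Tram1l1 at 0 in all libraries.

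**Figure D5:**
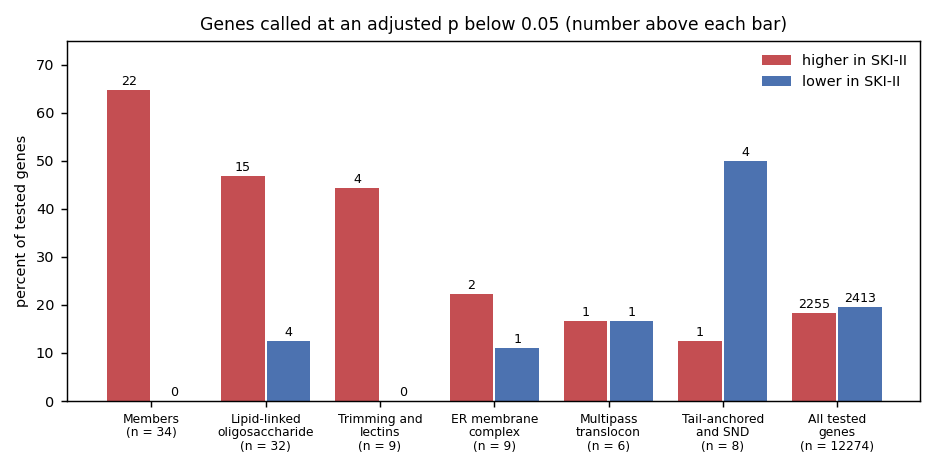
Percent of tested genes (vertical axis, from 0) called higher (red) or lower (blue) in SKI-II at an adjusted p below 0.05, with the number of genes above each bar, for the members, 5 related lists and all tested genes. Among the members 22 of 34 were higher and 0 lower, and in the list for tail-anchored proteins and SND 1 of 8 was higher and 4 lower.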

How the data were processed

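RNA-seq libraries of RAW264.7 cells, 3 given DMSO and 3 given SKI-II at 4 μg/mL, all for 24 h, were analyzed in the groups given by the labels. The authors selected poly(A) RNA and deposited raw counts of reads per Ensembl gene without normalization. The submitters' processing notes name Trimmomatic 0.36, STAR 2.5.2b, featureCounts of Subread 1.5.2 and DESeq2. Not given in the sources used here are the genome build, annotation and strand setting. All count columns were used.

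GENCODE M21 gave names for 49056 of the 49315 identifiers, with positions and exon lengths, and RefSeq gave promoters (GRCm38.p6). Counts were tested with edgeR 4.0.16 in R 4.3.3 (quasi-likelihood F test, TMM scaling, filterByExpr at its defaults of 10 for the count and 15 for the total) and adjusted by Benjamini-Hochberg over 12274 genes, called at an adjusted p below 0.05. Normalized counts are counts over the TMM-scaled library size, multiplied by the mean size of 16042438. Pairs of libraries within a group differed by more than sampling noise (15.4 to 58.1 in chi-square per degree of freedom), so each counted as 1 replicate. Intervals of counting error are not given, since the spread between libraries (a common coefficient of variation of 17.5%) exceeds it.

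The members and the gene lists were chosen with earlier results of these data known, so lists are described by counts and medians. Values in every library are given for the member of each complex with the largest absolute change, the smallest change where it has 3 or more members, the paralog pairs, and members called with a log2 fold change above 1 or below -1. In each pathway list, the up to 3 called genes that changed most are named, and the one that changed most in the opposite direction. The value of 1 further gene of these lists is not reported here. Alternatives were DESeq2 1.42.0, limma-voom (limma 3.58.1), RLE scaling, library size alone, no filter, at least 10 counts in every library, a replicate block, each library left out in turn, and 1 count added in ratios. Counts were simulated with 200 of 12107 genes changed by 1 on the log2 scale, each gene drawn independently and without a replicate effect. On these, edgeR and limma-voom each recovered 73.5% with 12 and 8 false calls, DESeq2 80.5% with 30, and the blocked fit 73% with 11. Far more genes were called in the data, and members there deviated together, so these rates may not hold for the data. Figures were drawn with matplotlib 3.10.9.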

Additional observations from a re-analysis of the deposited data

How the results depend on the processing

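The counts of members called and the members' median kept their direction in all 13 alternative fits. Counts of separated libraries, summed levels and shares of counts were not recomputed. The number of members called higher was 22, and 22 to 24 with another tool, scaling or filter. Leaving out each library in turn gave 15 (without DMSO replicate 2) to 26 (without DMSO replicate 3) members called higher, 7 or 8 with a log2 fold change above 1 and medians of 0.53 to 0.65. No member was called lower in any of these fits. The calls of 20 of the 34 tested members were the same in all 13, those of 14 changed in at least 1, and no called change reversed in sign. Sec62 and Ddost, neither called, crossed 0, with log2 fold changes down to -0.02 and up to 0.01. Of members not called, Srp14, Srp72, Spcs1, Sec11c, Magt1, Ssr2 and Sec61b were called in at least 1 alternative, and Srp68 lost its call without DMSO replicate 2 (adjusted p = 0.0865) and without SKI-II replicate 3 (adjusted p = 0.0557).

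Same-numbered libraries of the 2 conditions deviated together with correlations of 0.25, 0.01 and 0.46, so the numbers were not taken to pair the samples. Each of the SKI-II libraries 1 and 3 correlated best with the DMSO library of its own number, and library 2 did not. With the replicate number as a block, 27 members were called higher, 0 lower and 7 above 1, with a median of 0.57, and over all genes 2765 were called higher in place of 2255.

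The difference in the log2 ratio of Sec11c to Sec11a was -0.267 to -0.470 when a library was left out, of Stt3b to Stt3a -0.119 to -0.288, and of Tram2 to Tram1 -0.265 to 0.158, which crosses 0. With 1 count added the differences were -0.38, -0.19 and -0.03. Calls in the related lists that depended on single libraries are given with those lists. Shared sequence limits Srp54a, and low counts limit the precision for Tram2.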
